A study of Homo sapiens with 12 samples.

Results

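The ERK feedback genes DUSP1, DUSP4, DUSP5, DUSP6, DUSP10, SPRY2, SPRY4, SPRED1, ETV4 and ETV5 were followed in SW1990 cells that lived without glucose and carried different forms of PHGDH. These 10 genes were taken by name from the table of the S371A experiment, which lists 58302 genes, and by the same gene identifier from the table of the S55A experiment, which lists 50868. The tables share 50356 genes, and the 10 have the same coordinates in both, which are given on GRCh38 where each gene is described.

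ERK is the last kinase of the cascade that runs from receptor tyrosine kinases through RAS, RAF and MEK. Active ERK switches on genes whose products restrain the cascade: dual-specificity phosphatases remove phosphate from MAP kinases, and Sprouty and SPRED proteins dampen signalling between receptor, RAS and RAF. Because these transcripts follow ERK output, they are commonly read together with the ETS factors ETV4 and ETV5 as a transcript signature of the pathway. Protein and phosphorylation were not measured here.

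SW1990 is a human pancreatic adenocarcinoma line taken from a metastasis in the spleen. The cells were kept in DMEM with 10% serum, and RNA was taken after 24 h in DMEM lacking glucose, in all 12 libraries. They expressed PHGDH, the enzyme of the first step of serine synthesis from glycolysis, as WT rPHGDH, rPHGDH S371A or rPHGDH S55A, in which a serine is replaced by alanine. There were 4 groups of 3 libraries: WT-1 beside S371A in one experiment, and WT-2 beside S55A in the other. The prefix of rPHGDH, the promoter that drove it, whether lines were clones and whether the cells' own PHGDH was removed are not stated. Nothing says that replicates were separate cultures, so the p-values speak to how far libraries of a group differ, which can be a technical spread.

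Total counts ran from 13667033 to 19240270 per library, and replicates of a group had Spearman correlations of 0.988 to 0.992 over genes. The PHGDH transcript differed in both comparisons, so every difference below accompanies a lower PHGDH level. It fell from 474 ± 19.6 CPM (counts per 1000000 counts; mean ± SD, n = 3) in WT-1 to 201 ± 20.7 in S371A, and from 726 ± 17.5 in WT-2 to 357 ± 9.13 in S55A (edgeR adjusted p = 0.000316 and 7.18e-05). The deposited FPKM of PHGDH were 24.4 ± 1.03 in WT-1 and 101 ± 2.16 in WT-2, so the 2 experiments used unlike lengths for this gene. Summed CPM of 9 markers of carcinoma epithelium was 4784 to 5242 in WT-1, 5480 to 6560 in S371A, 2980 to 3233 in WT-2 and 4357 to 4478 in S55A. KRT8 and KRT18 made up most of each sum. At an adjusted p below 0.05, 2 of the 9 were higher in S371A and 3 in S55A, and 0 lower. Over all tested genes, 12.6% and 16.0% passed. CDH1, KRT7, MUC1 and CLDN4 had log2 fold changes below 0 in S371A, and CLDN4 and ESRP1 in S55A, none of which passed. These are bulk measurements, in which a change in the share of cells and a change in RNA per cell cannot be told apart. The part of the epithelial markers in the results below was not tested. Markers of leukocytes summed to between 0.753 and 2.41 CPM in any library, and those of endothelium to at most 0.512. The 7 fibroblast markers summed to 21.6 to 24.1 CPM in WT-1 and 10.0 to 12.7 in S371A, nearly all of it PDGFRB, and to 9.73 to 19.1 in WT-2 and 15.2 to 26.5 in S55A. COL1A2, COL3A1, DCN, LUM and PDGFRA had 0 counts in every library of WT-1 and S371A. In the other experiment, 0 of the 7 were at 0 throughout WT-2 or throughout S55A.

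Of the 10 feedback genes, 6 rose and 0 fell in S371A against WT-1 (adjusted p below 0.05 over all tested genes by edgeR, with Benjamini-Hochberg correction). Among all 16235 genes tested there, 12.6% were called, 7.05% higher and 5.53% lower. In S55A against WT-2, 4 of the 10 rose and 0 fell, where 16.0% of 15521 tested genes were called, 8.97% higher and 7.06% lower. All 10 passed the filter on low counts in both. The risers in S371A were DUSP1, DUSP4, DUSP5, DUSP10, SPRY2 and ETV5, and those in S55A were DUSP5, DUSP6, SPRED1 and ETV5, so that DUSP5 and ETV5 were called in both. The median log2 fold change of the 10 was 0.50 in S371A, with a range from -0.03 to 0.92, and 0.30 in S55A, with a range from -0.18 to 1.09. Over all tested genes the median was -0.01 in each. The libraries of mutant and wild type did not overlap for 8 of the 10 in S371A, all with the mutant higher, and for 6 in S55A, of which 5 were higher. Across all tested genes, 36.5% did not overlap in the first comparison and 38.2% in the second, with the mutant higher in 18.2% and 19.5% and lower in 18.3% and 18.7%.

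**Figure D1:**
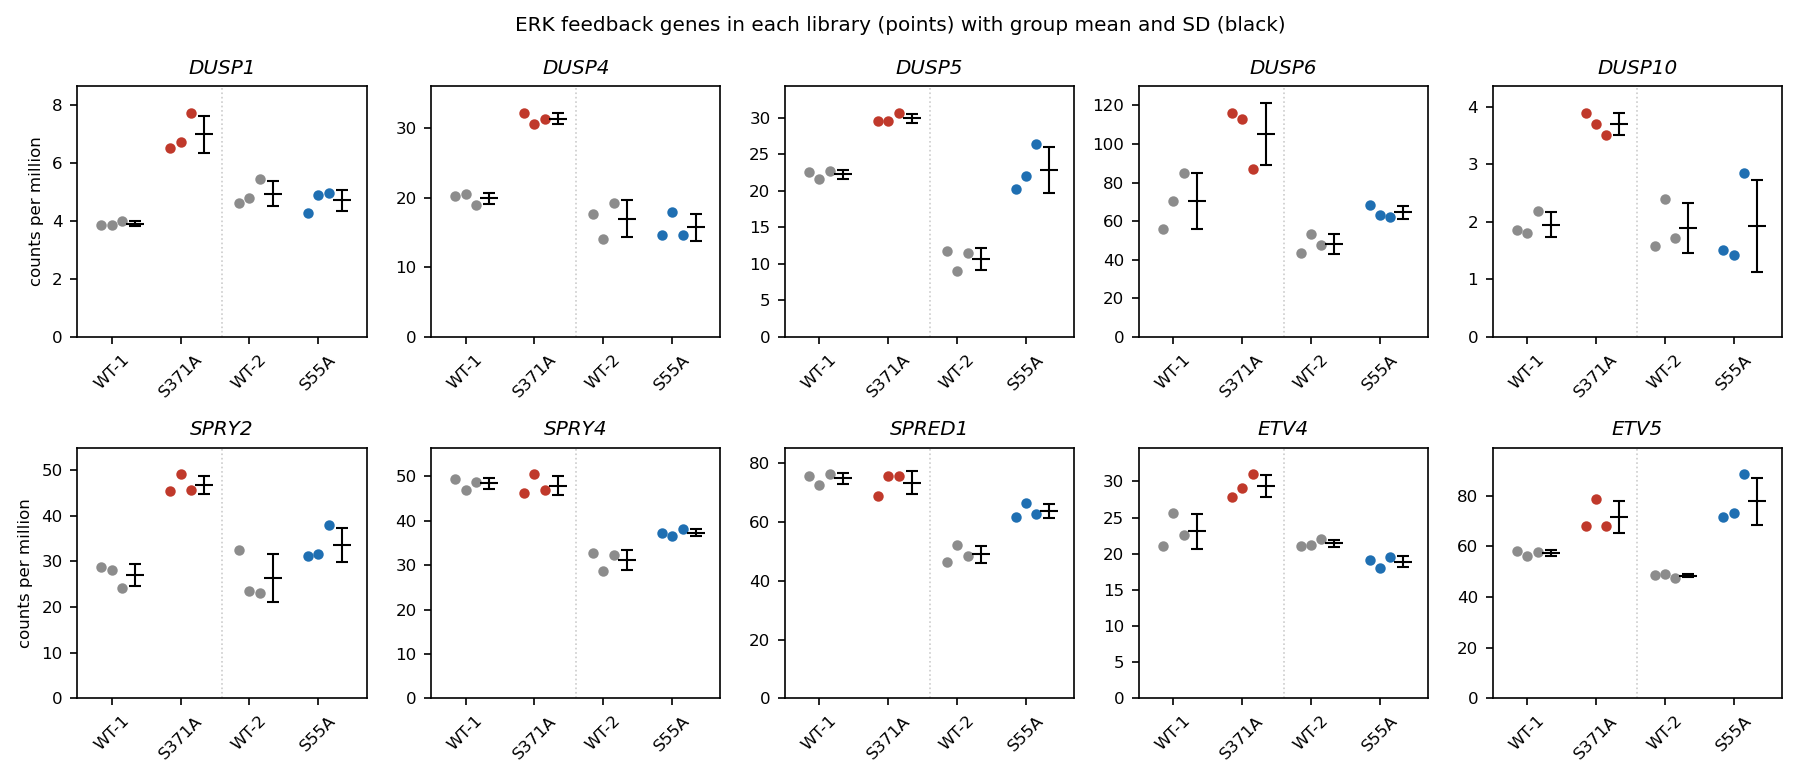
CPM of each feedback gene (y axis, linear, from 0) in the 12 libraries, with points for libraries and black marks for group mean and SD over 3; the dotted line parts the 2 experiments. DUSP1, DUSP4, DUSP10 and SPRY2 stand higher in S371A than in WT-1, and DUSP5 and ETV5 stand higher in each mutant than in its own wild type.

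The phosphatases of the nucleus differed from each other. DUSP1 (ENSG00000120129, chr5:172768090-172771195), an immediate early gene whose product acts on ERK, JNK and p38, measured 3.87, 3.88 and 4.01 CPM in WT-1 and 6.51, 6.73 and 7.74 in S371A. Every S371A library was above every WT-1 library, and DUSP1 rose by a log2 fold change of 0.84 ± 0.12 (SE; 1.79-fold, adjusted p = 0.00653). In the other experiment it measured 4.62, 4.79 and 5.45 CPM in WT-2 and 4.30, 4.91 and 4.96 in S55A. Those groups overlapped, and the log2 fold change was -0.07 with a 95% interval from -0.41 to 0.28.

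The promoters that could be read were searched for sequence motifs. RefSeq windows on GRCh38.p14 covering the 250 bases before a start site were at hand for DUSP1, DUSP6, DUSP10, SPRY2, SPRY4 and SPRED1, in 9 windows, and not used here for DUSP4, DUSP5, ETV4 and ETV5. They were searched on both strands for the cyclic AMP response element TGACGTCA, the ETS motif CCGGAAG, the AP-1 motif TGANTCA and the CArG box that binds serum response factor. Of 35116 promoter windows of this length, 1.65% held TGACGTCA, 8.52% CCGGAAG, 6.57% TGANTCA and 1.16% a CArG box. The DUSP1 window held TGACGTCA, in capitals below, from base -125 counted back from the start site, and none of the 9 windows held any of the other 3. It also held TATAAA from base -30, which 10.7% of windows hold. TGACGTCA was absent from the windows of DUSP10 and SPRY2, which like DUSP1 were called in S371A and not in S55A. GGGCGG, searched as well and held by 42.6% of windows, was found 4 times in the window of DUSP1, 1 time in that of SPRED1 and 0 times in that of DUSP6. The windows of DUSP1 and SPRED1 are shown because the mutants differed for these genes in opposite directions, and that of DUSP6, the ERK-binding phosphatase, as a window with none of the motifs searched. They lie at chr5:172771196-172771445 (minus strand), chr15:38252586-38252835 (plus strand) and chr12:89352502-89352751 (minus strand).
DUSP1: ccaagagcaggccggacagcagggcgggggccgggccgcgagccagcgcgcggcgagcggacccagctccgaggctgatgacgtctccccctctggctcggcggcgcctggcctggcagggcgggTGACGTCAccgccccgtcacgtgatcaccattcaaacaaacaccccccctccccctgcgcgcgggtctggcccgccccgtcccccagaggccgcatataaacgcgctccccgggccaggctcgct
SPRED1: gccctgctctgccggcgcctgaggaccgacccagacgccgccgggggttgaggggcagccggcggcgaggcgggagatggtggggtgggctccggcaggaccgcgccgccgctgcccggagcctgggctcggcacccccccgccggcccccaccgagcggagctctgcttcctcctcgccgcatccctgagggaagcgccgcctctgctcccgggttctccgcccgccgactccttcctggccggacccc
DUSP6: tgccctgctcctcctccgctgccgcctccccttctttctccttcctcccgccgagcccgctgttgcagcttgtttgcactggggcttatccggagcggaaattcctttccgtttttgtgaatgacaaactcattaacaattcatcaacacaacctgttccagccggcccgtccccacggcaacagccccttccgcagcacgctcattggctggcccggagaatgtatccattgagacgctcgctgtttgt
A match to these letters describes the sequence and does not show that a factor bound there.

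DUSP4 (ENSG00000120875, chr8:29333064-29350668), a nuclear phosphatase of ERK and JNK, measured 20.2, 20.6 and 19.0 CPM in WT-1 and 32.2, 30.6 and 31.3 in S371A. The S371A libraries lay close together and far above those of WT-1, and DUSP4 rose by 0.65 ± 0.06 on the log2 scale (1.57-fold, adjusted p = 0.00217). Its WT-2 libraries held 17.7, 14.1 and 19.2 CPM and in S55A 14.6, 17.9 and 14.7. Both groups spanned the same levels, and the log2 fold change was -0.12 with a 95% interval from -0.44 to 0.21.

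DUSP5 (ENSG00000138166, chr10:110497838-110511544), the ERK-specific phosphatase of the nucleus, rose in both mutants. It measured 22.5, 21.6 and 22.7 CPM in WT-1 and 29.5, 29.5 and 30.6 in S371A. This was a rise of 0.42 ± 0.06 on the log2 scale (1.34-fold, adjusted p = 0.00756), with no overlap between the groups. In WT-2 the libraries held 11.7, 8.99 and 11.4 CPM and in S55A 20.2, 22.0 and 26.4. That was the largest of the 20 fold changes of the feedback genes, at 1.09 ± 0.14 (2.13-fold, adjusted p = 0.00258). The wild-type groups themselves had means of 22.3 ± 0.618 CPM (WT-1) and 10.7 ± 1.50 CPM (WT-2), so the S55A mean of 22.9 ± 3.16 was close to the WT-1 mean. The tables were normalised separately and these levels were not tested against each other.

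DUSP6 (ENSG00000139318, chr12:89347232-89353271), the cytoplasmic phosphatase that binds and inactivates ERK, had the widest spread between replicates in the first experiment. It measured 56.2, 70.6 and 85.0 CPM in WT-1 and 116, 113 and 86.9 in S371A. The lowest S371A library lay just above the highest WT-1 library, and the log2 fold change of 0.58 ± 0.19 did not pass the threshold (unadjusted p = 0.0225, adjusted p = 0.105). Its 95% interval ran from 0.12 to 1.04, and DESeq2 called it (adjusted p = 0.0156; range over the 15 alternatives 0.0156 to 0.256). In WT-2 the libraries held 43.4, 53.5 and 47.6 CPM and in S55A 68.5, 63.2 and 62.0. The S55A libraries were all above those of WT-2, and DUSP6 rose by 0.42 ± 0.09 (1.34-fold, adjusted p = 0.0177). That call was lost without WT-2 replicate 1 (adjusted p = 0.0594), WT-2 replicate 3 (0.0575) or S55A replicate 1 (0.0625), against a range of 0.00278 to 0.0625 over the alternatives. In the GENCODE 29 annotation 40.5% of the exonic bases of DUSP6 lie opposite AC024909.2, and whether counting used strand is not given in the sources used here. AC024909.2 itself had 0 to 9 counts per library, beside 738 to 1830 for DUSP6.

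DUSP10 (ENSG00000143507, chr1:221701424-221742176), a phosphatase that acts on JNK and p38 rather than on ERK, was the least abundant of the 10. It measured 1.86, 1.81 and 2.20 CPM in WT-1 and 3.89, 3.71 and 3.52 in S371A, from 29 to 60 counts per library. The groups were well apart, and DUSP10 rose by 0.92 ± 0.14 on the log2 scale (1.89-fold, adjusted p = 0.0101). Counts in WT-2 gave 1.58, 2.39 and 1.72 CPM and those in S55A 1.51, 1.42 and 2.84. The groups overlapped, S55A replicate 3 was higher than any other library of that experiment, and the log2 fold change of 0.04 had a 95% interval from -0.71 to 0.79. Without that library it was -0.36.

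The inhibitors that act nearer the receptor gave differing values. SPRY2 (ENSG00000136158, chr13:80335976-80340951), which restrains the path from growth factor receptors to RAS and RAF, measured 28.7, 28.2 and 24.2 CPM in WT-1 and 45.4, 49.1 and 45.7 in S371A. It rose by 0.79 ± 0.08 on the log2 scale (1.73-fold, adjusted p = 0.00249), with every S371A library far above WT-1. In WT-2 it measured 32.5, 23.4 and 23.1 CPM and in S55A 31.2, 31.6 and 37.9. The highest WT-2 library, replicate 1, lay within the S55A range, and the log2 fold change of 0.35 ± 0.15 did not pass the threshold (adjusted p = 0.150, 95% interval 0.01 to 0.69). Without WT-2 replicate 1 it was 0.53 (adjusted p = 0.0376; range over the alternatives 0.0376 to 0.337).

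SPRY4 (ENSG00000187678, chr5:142310427-142326455), a Sprouty protein that also inhibits RAS activation by receptors, measured 49.5, 47.0 and 48.8 CPM in WT-1 and 46.3, 50.4 and 47.0 in S371A. The groups lay on each other, with a log2 fold change of -0.02 and a 95% interval from -0.15 to 0.12. The WT-2 libraries held 32.8, 28.6 and 32.3 CPM and in S55A 37.2, 36.5 and 38.1. The S55A libraries were all higher, and the log2 fold change of 0.26 ± 0.08 did not pass the threshold (adjusted p = 0.0702, 95% interval 0.07 to 0.44).

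SPRED1 (ENSG00000166068, chr15:38252326-38357249), which brings the RAS inactivator neurofibromin to the membrane, measured 75.6, 72.6 and 76.1 CPM in WT-1 and 68.7, 75.7 and 75.4 in S371A. The groups overlapped, and the log2 fold change was -0.03 with a 95% interval from -0.16 to 0.10. In WT-2 it measured 46.5, 52.1 and 48.5 CPM and in S55A 61.7, 66.5 and 62.8. Here the groups were apart, and SPRED1 rose by 0.38 ± 0.07 on the log2 scale (1.30-fold, adjusted p = 0.0120). The call was lost without WT-2 replicate 1 (adjusted p = 0.0507; range over the alternatives 0.00177 to 0.0507).

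ETV4 and ETV5 are ETS transcription factors of the PEA3 family, which the repressor CIC holds down until ERK signalling relieves it. ETV4 (ENSG00000175832, chr17:43527844-43579620) measured 21.0, 25.7 and 22.6 CPM in WT-1 and 27.9, 29.1 and 31.0 in S371A. The groups did not overlap, and the log2 fold change of 0.35 ± 0.09 lay just short of the threshold (adjusted p = 0.0520, 95% interval 0.13 to 0.56). It passed with the size factors of DESeq2 in edgeR (0.0493), in DESeq2 (0.0466), in limma-voom (0.0452) and without WT-1 replicate 2 (0.0433), against a range of 0.0433 to 0.142 over the alternatives. In WT-2 it measured 21.1, 21.2 and 22.0 CPM and in S55A 19.2, 18.0 and 19.6. It was the one feedback gene with every mutant library below every wild-type library, and its log2 fold change was -0.18 ± 0.09 (adjusted p = 0.195, 95% interval -0.38 to 0.02). In GENCODE 29, 1.89% of the exonic bases of ETV4 lie opposite DHX8. DHX8 had 1104 to 1974 counts per library, beside 292 to 484 for ETV4.

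ETV5 (ENSG00000244405, chr3:186046308-186110318) measured 58.3, 56.3 and 57.6 CPM in WT-1 and 68.0, 78.7 and 68.0 in S371A. It rose by 0.32 ± 0.07 on the log2 scale (1.25-fold, adjusted p = 0.0273), and the groups did not overlap. The call was lost in 6 of 15 alternatives, among them limma-trend on log2(FPKM + 1) (adjusted p = 0.0538) and log2(FPKM + 0.1) (0.0534), and without WT-1 replicate 1 (0.0730), 2 (0.0897) or 3 (0.0817). The range over the alternatives was 0.0104 to 0.0897. The level in WT-2 was 48.7, 49.0 and 47.6 CPM and in S55A 71.7, 73.2 and 88.4. All S55A libraries were far above WT-2, and ETV5 rose by 0.68 ± 0.09 (1.60-fold, adjusted p = 0.00260).

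**Figure D2:**
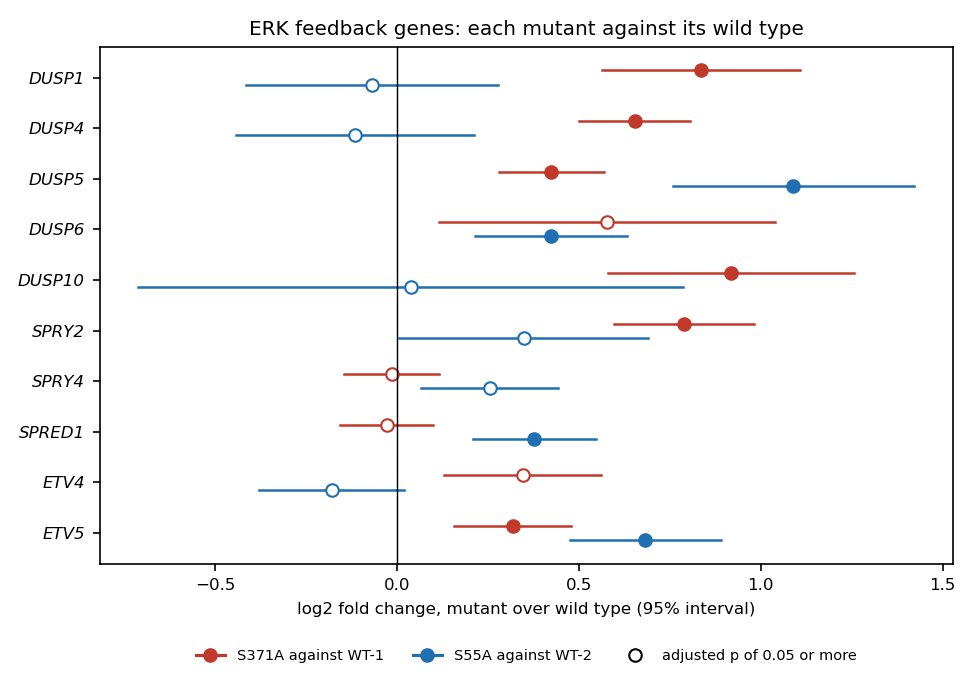
Log2 fold change of each feedback gene (x axis, mutant over its own wild type, with 95% interval) for S371A against WT-1 in red and S55A against WT-2 in blue, 3 libraries a group; filled points have an adjusted p below 0.05. The interval of DUSP10 in S55A, from -0.71 to 0.79, is the widest.

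The difference between the mutant effects was then tested across all 12 libraries, where 12.5% of 16666 tested genes were called, 6.10% with the S55A effect above the S371A effect and 6.43% below it. It was called for 5 of the 10. Because S371A and S55A were measured in separate experiments, mutant and experiment cannot be told apart. The S55A effect was below the S371A effect for DUSP1 by a log2 difference of -0.91 ± 0.17 (adjusted p = 0.00609), for DUSP4 by -0.77 ± 0.16 (0.00977) and for ETV4 by -0.53 ± 0.12 (0.0142). It was above the S371A effect for DUSP5 by 0.66 ± 0.16 (0.0203) and for SPRED1 by 0.40 ± 0.09 (0.0107). The DUSP4 call was lost in 1 of 19 alternatives, and the other 4 in none of them. Thus the same 10 genes held called differences in both directions, and among the nuclear phosphatases DUSP1 and DUSP4 differed one way and DUSP5 the other. For PHGDH itself the log2 difference was 0.20, from -1.24 in S371A and -1.03 in S55A (adjusted p = 0.185).

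The remaining 5 differences were not called. That of DUSP10 was -0.88, with a 95% interval from -1.69 to -0.08 (adjusted p = 0.150). Without S55A replicate 3 it was -1.27 and called (adjusted p = 0.0145; range over the 19 alternatives 0.0145 to 0.292). That of SPRY2 was -0.45 (interval -0.85 to -0.04) and that of DUSP6 -0.16 (interval -0.63 to 0.31). SPRY4 had a difference of 0.27 (interval 0.06 to 0.47). ETV5 had one of 0.36 (interval 0.10 to 0.61), which was called without S371A replicate 2, at 0.45 (adjusted p = 0.0319; range 0.0319 to 0.140).

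**Figure D3:**
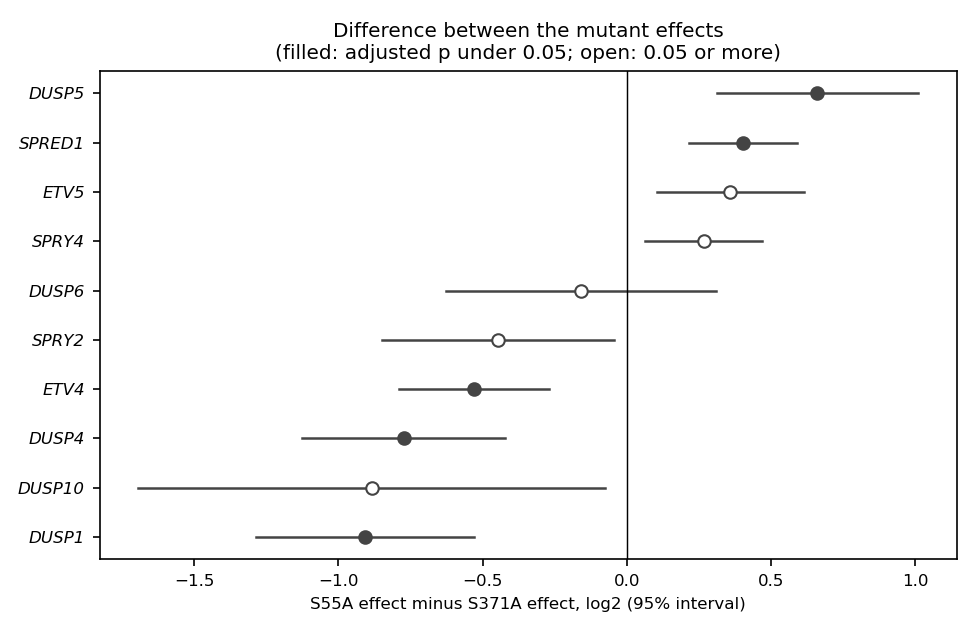
S55A effect minus S371A effect for each feedback gene (x axis, log2, with 95% interval), from the contrast over 12 libraries; filled points have an adjusted p below 0.05. DUSP5 and SPRED1 lie to the right of 0, and DUSP1, DUSP4 and ETV4 to the left.

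Per kilobase of exon in GENCODE 29, DUSP6 had the highest level of the feedback transcripts in all 4 groups, at 15.2 ± 3.11 CPM per kilobase in WT-1, 22.7 ± 3.47 in S371A, 10.4 ± 1.10 in WT-2 and 13.9 ± 0.741 in S55A. On the deposited FPKM, which rest on other lengths, it was not the highest in any group. There SPRY2 led in WT-1 (8.94 ± 0.842 FPKM, against 8.68 ± 1.74 for DUSP6) and in S371A (15.3 ± 0.778 against 12.8 ± 2.13), and ETV5 led in WT-2 (6.12 ± 0.116 against 5.93 ± 0.638) and in S55A (9.70 ± 1.34 against 7.84 ± 0.337). The FPKM of DUSP6 imply a length of 8166 bases, beside 4632 bases of exon used here. Those of SPRY2 imply 3038 bases in the table of S371A, as used here, and 4727 bases in that of S55A. The order below thus rests on the gene model, for DUSP6, for SPRY2 in the S55A experiment and for other genes too. The FPKM of ETV4 imply 7223 bases, beside 3607 bases of exon. In WT-1, SPRED1 stood above ETV5 on the FPKM (8.63 ± 0.222 against 7.24 ± 0.141), the reverse of their order per kilobase of exon. Per kilobase of exon, DUSP10 was the lowest in each group, between 0.651 and 1.27, with DUSP1 and DUSP4 the next lowest. In WT-1 the middle of the order was ETV5 at 9.89, SPRED1 at 9.05, SPRY2 at 8.90, DUSP5 at 8.52, SPRY4 at 7.37 and ETV4 at 6.40 CPM per kilobase, of which SPRED1, SPRY2 and DUSP5 overlapped with their neighbours. In S371A, SPRY2 was at rank 2, with 15.4, followed by ETV5 at 12.3 and DUSP5 at 11.4, which overlapped. In WT-2, DUSP6, SPRY2 at 8.67 and ETV5 at 8.35 overlapped in turn, and so did DUSP6, ETV5 at 13.4 and SPRY2 at 11.0 in S55A. DUSP5 was at rank 7 in WT-2 at 4.10 CPM per kilobase and rank 4 in S55A at 8.74, where it overlapped with SPRED1 at 7.71. In both groups of that experiment DUSP1 and DUSP4 overlapped. Orders were read within a group. Over the 10, the lengths implied by FPKM were 1 to 2 times the exon lengths.

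The feedback genes were read beside 6 lists of pathway genes. Counts of each list stand against the 12.6% of all tested genes called in S371A and the 16.0% in S55A, and no list was tested against other genes. Of the ERK-induced transcripts, 17 of 22 tested genes rose and 0 fell in S371A, with a median log2 fold change of 0.66. EGR1, an immediate early transcription factor, rose from 67.2 ± 0.921 to 156 ± 2.87 CPM, a log2 fold change of 1.22 ± 0.04 (adjusted p = 1.60e-05). PLAUR, the urokinase receptor, rose by 1.51 ± 0.10 (adjusted p = 0.000438) and EGR3 by 1.93 ± 0.15 (0.000763). In S55A, 7 of 20 tested genes rose and 0 fell, with a median of 0.42. JUNB, an AP-1 subunit, rose by 0.78 ± 0.09 (adjusted p = 0.00182), the ephrin receptor EPHA2 by 0.56 ± 0.08 (0.00340) and the cytokine LIF by 0.71 ± 0.10 (0.00392). JUNB has 14.2% of its exonic bases opposite HOOK2. EGR1 in S55A had a log2 fold change of 0.44 ± 0.15 (adjusted p = 0.0887), and the difference of its mutant effects, -0.78, was called (adjusted p = 0.0117).

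**Figure D4:**
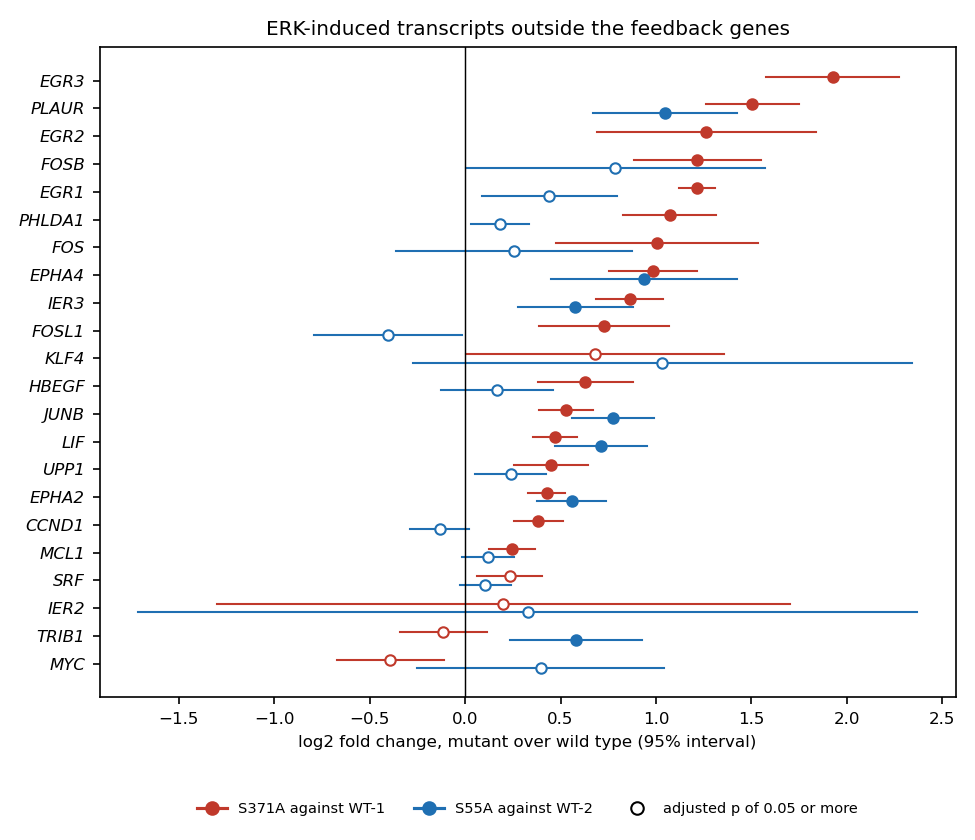
Log2 fold change of the 22 listed ERK-induced transcripts outside the feedback genes (x axis, mutant over its own wild type, with 95% interval), S371A in red and S55A in blue, 3 libraries a group; filled points have an adjusted p below 0.05, and EGR2 and EGR3 were tested in S371A only. Of the red points 17 are filled, all to the right of 0, and of the blue points 7.

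Feedback genes outside the 10 formed 2 further lists. Of 7 other MAP kinase phosphatases tested, 1 rose in S371A and 2 in S55A, with medians of 0.08 and 0.25, beside the 12.6% and 16.0% of all tested genes called. DUSP8, which acts on JNK and p38, rose by 0.44 ± 0.07 on the log2 scale in S371A (adjusted p = 0.0108) and by 0.67 ± 0.08 in S55A (0.00160). DUSP16, another phosphatase of JNK and p38, rose from 119 ± 3.94 to 188 ± 2.18 CPM in S55A (0.66 ± 0.06, adjusted p = 0.000575), and the difference of its mutant effects was called (0.66, adjusted p = 0.00011). Of 10 other inhibitors of receptors and RAS, 1 rose in S371A and 2 in S55A, with a median of 0.07 in each. ERRFI1, which binds and inhibits EGFR, rose from 244 ± 24.3 to 366 ± 11.0 CPM in S371A (0.59 ± 0.07, adjusted p = 0.00461), and the difference of its mutant effects was called (-0.48, adjusted p = 0.00437). SPRED2, a relative of SPRED1, rose in S55A by 0.65 ± 0.10 (adjusted p = 0.00391), and the difference of its mutant effects was called too (0.56, adjusted p = 0.00710). SPRY3 passed in S55A at 0.60 ± 0.17 (adjusted p = 0.0473), a call lost in 13 of 15 alternatives (range 0.0451 to 0.147).

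Of 10 ETS factors and partners outside the feedback genes, 2 rose in each mutant, with medians of 0.14 in S371A and 0.15 in S55A. ETV3, an ETS repressor, rose by 0.47 ± 0.06 in S371A (adjusted p = 0.00488) and by 0.36 ± 0.07 in S55A (0.0131). Its call in S55A was lost in 1 of 15 alternatives (range 0.00250 to 0.0549). The repressor CIC passed in S371A at 0.21 ± 0.04 (adjusted p = 0.0250), and this call was lost in 10 of 15 alternatives (range 0.0236 to 0.0941). ETV6 rose in S55A by 0.52 ± 0.10 (adjusted p = 0.0103).

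Among 26 genes of the cascade from receptor to ERK, 3 were called higher and 1 lower in S371A, with a median of 0.07, and 6 rose in S55A, with a median of 0.16. The called share in S371A, 4 of 26, was near the 12.6% of all tested genes. EGFR, the receptor of epidermal growth factor, rose from 120 ± 3.78 to 227 ± 9.25 CPM in S371A, a log2 fold change of 0.93 ± 0.05 (adjusted p = 0.000118). In S55A it stood at 100 ± 16.1 CPM against 89.3 ± 7.76 in WT-2 (0.17 ± 0.12, adjusted p = 0.395), and the difference of the effects was called (-0.76, adjusted p = 0.00554). RPS6KA5, a nuclear kinase that ERK and p38 activate, rose in both, by 0.63 ± 0.11 (adjusted p = 0.0136) and 0.61 ± 0.09 (0.00424). RPS6KA3 passed in S371A at 0.23 ± 0.05 (adjusted p = 0.0256), which was lost in 6 of 15 alternatives (range 0.0159 to 0.0885). The lower gene was NRAS (-0.17 ± 0.04, adjusted p = 0.0486), a call lost in 9 of 15 alternatives (range 0.0284 to 0.139). In S55A, MAPK3, which encodes ERK1, rose by 0.64 ± 0.09 (adjusted p = 0.00312) and the adaptor SHC1 by 0.50 ± 0.10 (0.0124).

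For the JNK and p38 kinases, which DUSP10 acts on, listed together with the MAP2K enzymes that activate them, 0 of 11 were called higher and 1 lower in S371A, and 2 of 10 higher and 2 lower in S55A. MAP2K6, which activates p38, fell by 0.46 on the log2 scale in S371A (adjusted p = 0.0131) and by 0.48 in S55A (0.0184). These calls were lost in 2 and 5 of 15 alternatives (ranges 0.00230 to 0.0585 and 0.0109 to 0.0741). In S55A, MAPK9, which encodes JNK2, rose by 0.42 ± 0.08 (adjusted p = 0.00902), and MAP2K3 passed at 0.45 ± 0.10 (0.0191), which was lost in 3 of 15 alternatives (range 0.00765 to 0.0720). MAPK12, a p38 kinase, was the other gene lower in S55A (-0.44 ± 0.11, adjusted p = 0.0314), a call lost in 6 of 15 alternatives (range 0.00994 to 0.102).

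Patterns over the 12 libraries were compared by Pearson's r of log2 CPM after the mean of each table was taken off, among 11686 genes; the libraries share their groups, and these are descriptions. The feedback gene most like DUSP5 was ETV5 (r = 0.952), followed by SPRY4 (0.857) and SPRED1 (0.773), while DUSP1 (0.306), DUSP10 (0.288), DUSP4 (0.241) and ETV4 (-0.0647) were least like it. Most like DUSP6 was ETV5 (0.701), then SPRY2 (0.629), DUSP5 (0.618) and DUSP10 (0.608). Outside the 10, the genes closest to DUSP5 were ATP2C2 (0.983), OPTN (0.981), NBPF1 (0.977), LAMB3 (0.977) and BHLHA15 (0.974). Those closest to DUSP6 were MAP2 (0.956), RAB4B (0.930), CGGBP1 (0.907), ZBTB38 (0.905) and RAB8A (0.903).

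Many immediate early transcripts are short-lived and carry AU-rich elements after the stop codon. The pentamer ATTTA was counted there in the longest annotated stretch of each gene (GENCODE 29), at a median of 1.92 per kilobase in the 10 feedback genes and 1.69 in 12347 tested genes. DUSP1 had 4 in 672 bases, or 5.95 per kilobase, and SPRED1 had 24 in 5585 bases, or 4.30 per kilobase. DUSP10 had 3.04 per kilobase, SPRY2 2.56, SPRY4 2.12, ETV5 1.72, DUSP4 1.51 and DUSP6 0.495, and DUSP5 and ETV4 had 0. Of the 6 that rose in S371A, DUSP1, DUSP10, SPRY2 and ETV5 lay above the median of tested genes, and DUSP4 and DUSP5 below it. ETV5 was close to that median, at percentile 50.6. Of the 4 that rose in S55A, SPRED1 and ETV5 lay above it, and DUSP5 and DUSP6 below. Of the genes called in neither mutant, SPRY4 lay above it and ETV4 below. A link between the pentamer and the changes was not tested.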

How the data were processed

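Each experiment has 1 deposited table with counts per gene and FPKM for 6 libraries; the authors' FPKM are those counts scaled by a gene length and the library total, to a relative deviation of 1.1e-05. Per the submitters' processing notes, the tools were HISAT2 2.0.4, StringTie 1.3.0, CASAVA and edgeR, and the builds mm10 and GRCh38; no roles are given. How reads were counted, the annotation release and the strand setting: not given in the sources used here. A column's number was read as the replicate, and the wild type as that of its own table; 0 value columns were unmapped. Coordinates are those of the deposited tables and of GRCh38.

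Deposited counts were tested in edgeR 4.0.16 (R 4.3.3) with filterByExpr, TMM scaling and its quasi-likelihood test (robust), adjusted by Benjamini-Hochberg at 0.05 over all tested genes. Mutants were compared with the wild type of their own table over 6 libraries, and the difference of effects over 12. The procedure was tested on simulated data. CPM use TMM-scaled totals, except that marker sums use plain library totals and are given as ranges over the libraries of a group. Counts of a single library cover counting error only, with 3 counts equal to 0.156 to 0.220 CPM on plain totals. Alternatives were RLE and upper quartile factors, no filter, 1 CPM in 3 libraries, DESeq2 1.42.0, limma-voom (3.58.1), a replicate block, limma-trend on log2(FPKM + 1) and log2(FPKM + 0.1), and leaving out each library. Named genes are the 10, PHGDH, up to 3 called genes with the smallest p per list and comparison, and the 5 genes most like DUSP5 and DUSP6 at a mean of 5 CPM or more; NRAS, MAPK12 and the values given for genes outside their called comparison were chosen after their values were seen. The members and lists were chosen with earlier results of these data known.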

Additional observations from a re-analysis of the deposited data

Results flagged for a closer look

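The feedback genes below had effects that differed between the mutants, by the test of the difference itself over 12 libraries (edgeR, adjusted p below 0.05 over all tested genes). The log2 value is the S55A effect minus the S371A effect. It was -0.91 for DUSP1, -0.77 for DUSP4, 0.66 for DUSP5, 0.40 for SPRED1 and -0.53 for ETV4. Each mutant was measured in 1 experiment, so that mutant and experiment cannot be told apart in any of the 5. The call of DUSP4 was lost in 1 of 19 alternatives.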

How the results depend on the processing

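Over the alternatives, the number of feedback genes called was 5 to 8 in S371A (6 as reported) and 3 to 4 in S55A (4). For the difference it was 4 to 6 (5). In S371A, DESeq2 gave the 8 and called 1747 of 14971 tested genes, against 2042 of 16235 as reported. The fits giving 5 called from 784 of 16235 (replicate block) to 1851 of 16235 (log2(FPKM + 1)). In S55A, those giving 3 called from 1344 of 15798 to 1485 of 15803, against 2488 of 15521. For the difference, the 4 came with 1098 of 16666 called (replicate block), against 2087. The 6 came with 1476 of 17093 (without S371A replicate 2) and 2257 of 16978 (without S55A replicate 3). DUSP1, DUSP4, DUSP5, DUSP10 and SPRY2 stayed called in S371A, and DUSP5 and ETV5 in S55A, in each of 15 alternatives. The pseudocount of the FPKM fits shrinks the values of low genes, to a log2 fold change of 0.32 for DUSP10 in S371A on log2(FPKM + 1).

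Replicate numbers did not pair the libraries: same-numbered libraries had correlations of their deviations of -0.0851 to -0.00289 over 6 pairs. With the replicate block, 784 genes in place of 2042 were called in S371A, 1632 in place of 2488 in S55A and 1098 in place of 2087 for the difference. ETV5 in S371A (adjusted p = 0.0785) and the difference of DUSP4 (0.0607) were then not called, against ranges of 0.0104 to 0.0897 and 0.0005 to 0.0607 over the alternatives.

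Leaving out 1 library gave 917 to 1576 called genes in S371A, 1344 to 2491 in S55A and 1407 to 2257 for the difference. For the 6 lists together it gave 19 to 23 called of 86 tested genes in S371A (26 as reported). In S55A it gave 12 of 84 to 25 of 83 (23 of 83 as reported). The lowest were without WT-2 replicate 1 (12 of 84), S55A replicate 1 (14 of 83), WT-2 replicate 3 (15 of 84) and S55A replicate 2 (15 of 84). Among all tested genes, the same fits called 1344 of 15798, 1416 of 15873, 1485 of 15803 and 1372 of 15874, against 2488 of 15521 as reported. Values that were not called and lay near 0 turned sign. Leaving out 1 library, the log2 fold change in S371A ran from -0.054 to 0.0091 for SPRY4 and from -0.053 to 0.016 for SPRED1. In S55A it ran from -0.12 to 0.010 for DUSP1 and from -0.36 to 0.23 for DUSP10. DUSP10 in S55A was -0.0021 in limma-voom, -0.0039 with the replicate block, -0.0026 on log2(FPKM + 1) and -0.031 on log2(FPKM + 0.1). The cause of these changes was not tested; leaving out a library also leaves fewer degrees of freedom. DUSP10, with 26 to 60 counts per library, is the feedback gene whose precision the depth limits most.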

Other observations

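MYC, one of the ERK-induced transcripts, stood at different levels in the wild-type groups: 138 ± 6.30 CPM in WT-1 and 105 ± 16.5 in S371A, against 7.72 ± 2.73 in WT-2 and 10.2 ± 1.92 in S55A (mean ± SD, n = 3). EGR1 likewise had 67.2 ± 0.921 CPM (WT-1) and 25.4 ± 1.30 CPM (WT-2). The tables were normalised separately, these levels were not tested against each other, and both genes were chosen after their values were seen. Within its table, MYC had a log2 fold change of -0.39 ± 0.12 in S371A (edgeR adjusted p = 0.0770) and 0.40 ± 0.28 in S55A (0.372).

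Other differences between the mutant effects were called among the ERK-induced transcripts, also chosen after their values were seen. The S55A effect lay below the S371A effect for PHLDA1 (-0.90, edgeR adjusted p = 0.00099), CCND1 (-0.52, 0.00259) and FOSL1 (-1.14, 0.00988), and above it for TRIB1 (0.69, 0.0378). For EGR3 it lay below as well (-1.77, 0.0131), but EGR3 did not pass the filter on low counts in S55A against WT-2. FOSL1, an AP-1 subunit, had a log2 fold change of 0.73 in S371A, where it was called, and of -0.40 in S55A, where it was not (adjusted p = 0.143).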
